A study of Caenorhabditis elegans with 8 samples.

Results

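The 10 genes described here code for proteins that work at or supply the DNA replication fork: the sliding clamp *pcn-1*, the clamp loader subunits *rfc-1* and *rfc-2*, the DNA ligase *lig-1*, the primase-associated subunit *div-1*, the single-stranded DNA-binding proteins *rpa-1* and *rpa-2*, the ribonucleotide reductase subunits *rnr-1* and *rnr-2*, and the mitochondrial single-stranded DNA-binding protein *mtss-1*. They were chosen by name for these roles, and all 10 were found among the 46739 gene IDs measured. RNA was sequenced from *C. elegans* germlines, with the stage labelled L4 and 100 worms a sample, in wild type N2 (WT) and in the deletion mutant *nmad-1(ok3133)*, each at 20°C and at 25°C. Each of the 4 groups had 2 libraries, and all worms were fed dam- dcm- bacteria. The mutant is represented by 1 deletion allele, and *nmad-1* codes for a putative DNA demethylase of the AlkB family. Letters A and B tell the libraries of 1 group apart and carry no other meaning.

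In replicating cells the clamp encircles DNA and holds the polymerases on the template, and the loader opens and closes it around a primer end. Replication protein A covers the exposed single strand, DNA polymerase alpha with primase starts each fragment, and the ligase joins the fragments of the lagging strand. Ribonucleotide reductase makes the deoxyribonucleotides that all of this consumes. In the worm gonad these genes serve the dividing cells of the distal mitotic zone and the S phase that precedes meiosis, and the RNA that the oocyte stores supplies the first divisions of the embryo. Mitochondrial DNA has its own single-stranded DNA-binding protein.

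Values are normalized expected counts, that is, reads assigned to a gene and divided by 1 scaling factor a library, which the authors set separately for each temperature. Estimated depth ran from 18451560 to 33429410 reads a library. No column name holds a genotype. Columns were assigned to genotypes from the 2 sides of each comparison named in the labels, taken in the order in which the study names that comparison (mutant, then WT), and every direction below rests on this inference. The targeted gene was lower in the columns so assigned to the mutant. At 20°C its values were 540 and 471 in WT against 114 and 131 in the mutant. At 25°C they were 764 and 753 in WT against 170 and 171 in the mutant. Germ cell development genes, 24 markers used to check the labelled tissue, were read in every library, with a summed level of 12187 to 17086 RPM. RPM was computed by leaving out ribosomal RNA genes and scaling the remaining values of each library to a total of 1000000.

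Library A of *nmad-1* at 20°C stood apart. Ribosomal RNA took 36.2% of its reads, against 23.35% to 26.95% in the other 3 libraries at that temperature. Its germ cell development markers summed to 12187 RPM, against 15697 to 16118 in those 3, and its intestine markers to 3767 against 7171 to 11815. Muscle markers were higher in it, at 3396 against 1277 to 1951, and so were neuron markers, at 325 against 119 to 161. Sperm markers, at 34.9 against 4.58 to 13.8, and cuticle and epidermis markers, at 276 against 121 to 245, were also higher. Gonadal sheath and spermatheca markers were not higher, at 738 against 741 to 820. The 10 replication genes summed to 1879 RPM in it and to 2362 to 2489 in the other 3. Counts of calls and medians at 20°C, the interaction and the likeness of the genes over libraries are given with and without this library. In RNA from whole germlines, fewer replicating cells and less RNA per cell cannot be told apart.

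In WT at 20°C the clamp was read at the highest level per coding length. These levels are in RPM per kilobase of coding sequence, and are means ± SD of 2 libraries. *pcn-1* stood at 529 ± 38.6. The ribonucleotide reductase subunits followed, with *rnr-2*, the small subunit, at 317 ± 21.9 and *rnr-1*, the large subunit, at 202 ± 10.7. *mtss-1* stood at 185 ± 13.3, *rpa-2* at 157 ± 2.52 and *rpa-1* at 137 ± 3.15. The large clamp loader subunit *rfc-1* was at 103.9 ± 6.53, *lig-1* at 89.7 ± 5.69, *div-1* at 52.9 ± 0.111 and the small loader subunit *rfc-2* at 51.7 ± 0.0728. No neighbours in this order had overlapping library values, but *rnr-1* and *mtss-1* were separated by only 194.25 against 194.15 RPM per kilobase.

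**Figure D1:**
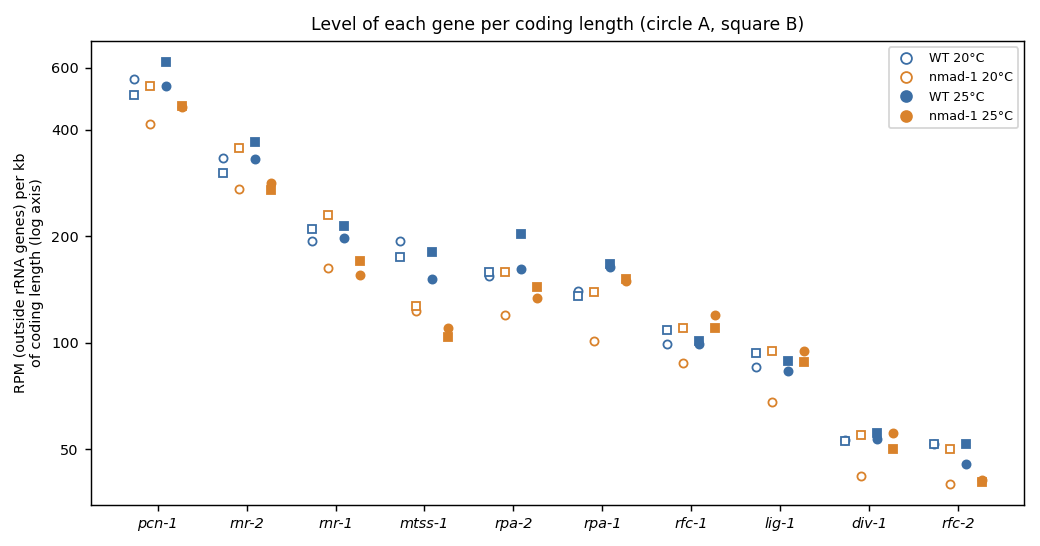
Level of each gene in every library, in RPM (share outside ribosomal RNA genes) per kilobase of coding length, on a log axis; open symbols are 20°C, filled symbols 25°C, blue WT and orange *nmad-1*, circle A and square B. *pcn-1* is the highest gene in all 4 groups, and *mtss-1* has a mean of 166 in WT at 25°C and 107 in *nmad-1*.

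By mean, the order of the highest genes was the same in all 4 groups: *pcn-1*, then *rnr-2*, then *rnr-1*. In WT at 25°C, however, the library values of *rnr-1* (198 and 214) overlapped those of *rpa-2* (161 and 202). Below *rnr-1* the place of *mtss-1* differed between groups. At 25°C in WT its mean was 166 RPM per kilobase and its library values overlapped those of its neighbours *rpa-2* (182) and *rpa-1* (165). In *nmad-1* at 25°C it stood at 107, below *rfc-1* (115), and its 2 library values, 110 and 104.07, lay just under both of those of *rfc-1*, 120 and 110. These levels are rescaled to the same total in each library, because the 2 temperatures were normalized apart. They are shares of a total whose make-up differed. In WT, intestine markers summed to 7171 and 8425 RPM at 20°C and to 1265 and 2335 at 25°C. No level was tested across temperatures.

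At 20°C none of the 10 genes passed the test between genotypes. As deposited all had a negative difference (*nmad-1* minus WT), which turned positive in *rfc-1*, *rnr-1*, *rnr-2*, *lig-1* and *div-1* under at least 1 of 5 other scalings. The median log2 fold change was -0.22, beside -0.050 over the 12260 genes tested, of which 0.481% were called at an adjusted p under 0.05 (limma with Benjamini-Hochberg adjustment). At an unadjusted p under 0.05, 1 of the 10 passed, against 6.88% of all genes. In 2 genes, *rfc-2* and *mtss-1*, both *nmad-1* values lay below both WT values, a pattern that 19.1% of all genes showed.

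Except in *rfc-2* and *mtss-1*, the negative sign at 20°C rested on library A. Without library A these 2 genes stayed negative, at -0.039 and -0.54. Library A lay below both WT libraries in 10 of 10 genes, whereas library B lay above both in 6 and below both in 2. The share of all genes with these patterns in 1 library was not counted. Other germline lists were also lowest in library A. Helicase and licensing genes summed to 2182.6 RPM in it, against 2769.5 to 2913.9 in the other libraries at 20°C. Other fork genes summed to 2433.8 against 2971.4 to 3130.7. The clamp shows the low value of library A: *pcn-1* was read at 11934 and 10497 in WT, at 8106 in *nmad-1* library A and at 11322 in library B. Library B thus fell between the WT values. Without library A the log2 fold change of *pcn-1* was 0.017 and none of the 10 genes was called, where 1.78% of all genes were. Without library B, 9 of the 10 genes were called lower, where 24.5% of all genes were. The median log2 fold change of the 10 without library A was 0.039, beside 0.0022 over all genes. Apart from the gonadal sheath and spermatheca markers, the marker and ribosomal RNA values given above moved with library A. Their part in these differences was not tested.

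*mtss-1* had the lowest log2 fold change at 20°C. It was read at 2690 and 2370 in WT and at 1556 and 1741 in *nmad-1* at 20°C. Both mutant libraries lay below both WT libraries, with no overlap. Its log2 fold change was -0.62 ± 0.26 (SE), 65.2% of WT, with an unadjusted p of 0.0217 and an adjusted p of 0.541 by limma, so it did not pass over all genes. Without library A the log2 fold change was -0.54. Under 5 other scalings of the libraries it lay between -0.56 and -0.40, with adjusted p-values by limma from 0.381 to 0.664.

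**Figure D2:**
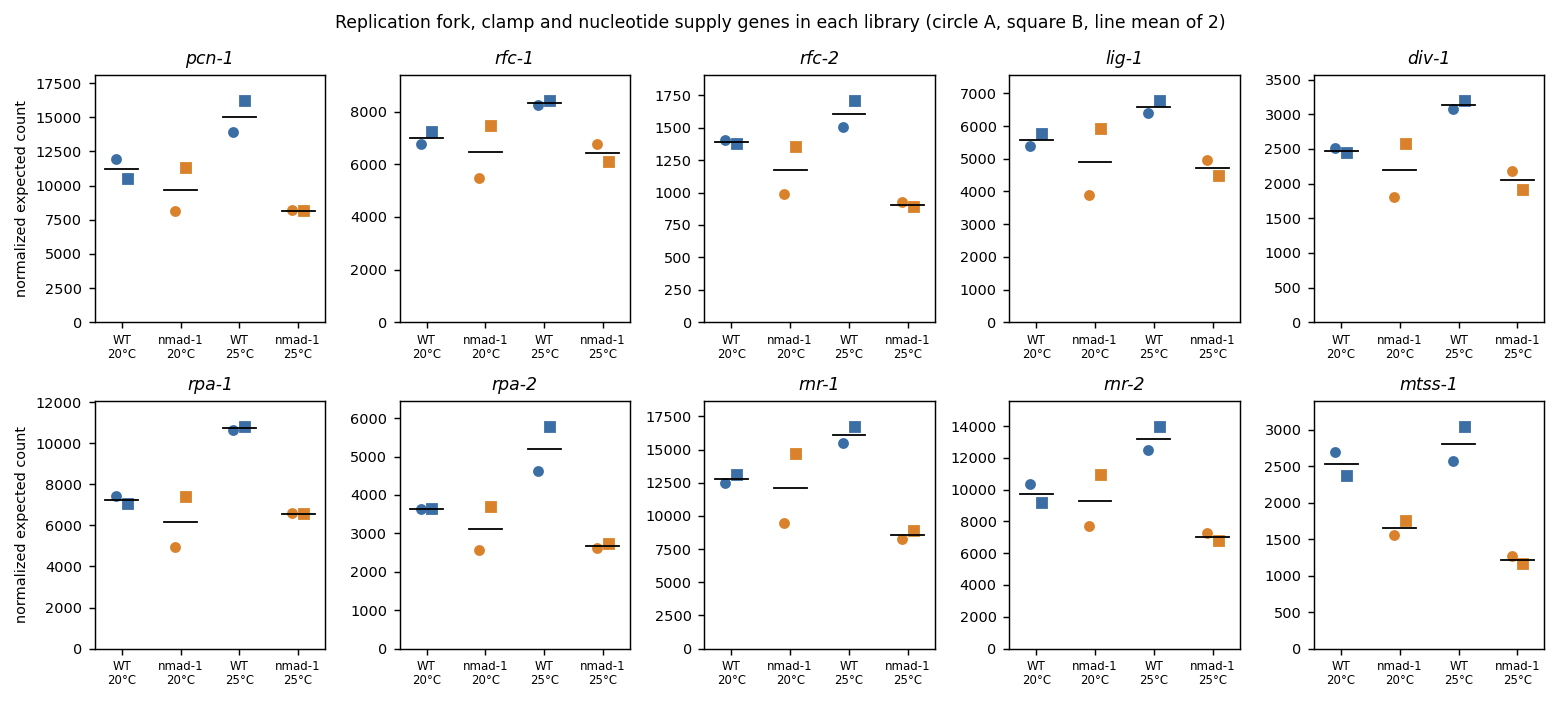
Normalized expected count of each gene in each library (blue WT, orange *nmad-1*, circle A, square B, black line mean of 2), with axes that start at 0. Values at 20°C and 25°C were normalized separately. At 25°C both *nmad-1* values lie below both WT values in all 10 genes, a pattern that 46.7% of all genes tested showed. At 20°C only library A lies below both WT values in all 10, and the share of all genes was not counted.

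At 25°C, in the values as deposited, all 10 genes were lower in *nmad-1* and passed the test, but *rfc-1*, *lig-1*, *div-1* and *rpa-1* turned direction under at least 1 of 5 other scalings. The median log2 fold change of the 10 was -0.85, beside -0.088 over the 11955 genes tested. Of those genes 70.8% were called and 38% were called lower. Among genes with a mean of at least 100, as all 10 have, 59.9% were called lower and the median was -0.40. Both *nmad-1* libraries lay below both WT libraries in 10 of 10 genes, against 46.7% of all genes. Exact permutation of 2 against 2 libraries cannot give a two-sided p below 0.333.

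**Figure D3:**
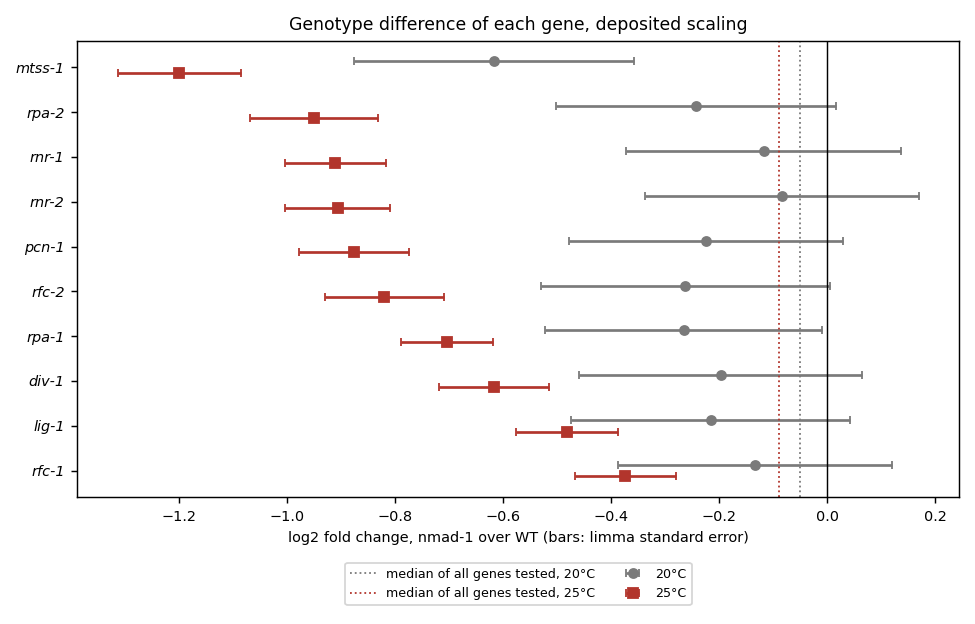
Log2 fold change of each gene (*nmad-1* over WT) at 20°C (grey circles) and 25°C (red squares), with limma standard errors; dotted lines mark the medians of all genes tested, -0.050 at 20°C and -0.088 at 25°C. Values at 25°C run from -1.20 for *mtss-1* to -0.37 for *rfc-1*.

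Of the clamp, its loader and the enzymes of fragment synthesis, the clamp had the lowest log2 fold change at 25°C and the large loader subunit the one nearest to 0. *pcn-1* was read at 13898 and 16186 in WT and at 8232 and 8111 in *nmad-1*. The groups were far apart, with the mutant at 54.5% of WT and a log2 difference of -0.88 ± 0.10 (SE, limma adjusted p 0.00033), and it was called under 4 of the 5 other scalings. *rfc-2*, a small loader subunit, was read at 1503 and 1706 in WT and at 924 and 889 in *nmad-1*, a log2 difference of -0.82 ± 0.11 (limma adjusted p 0.00054). It stayed negative under all 5 other scalings, from -0.43 to -0.031, and was called under 1 of them. *rfc-1*, the large subunit of the same loader, was read at 8243 and 8405 in WT and at 6778 and 6084 in *nmad-1*. Here the gap between groups was narrower, at 77.2% of WT and -0.37 ± 0.094 (limma adjusted p 0.00754), and the sign was positive under all 5 other scalings. *lig-1*, which seals the nicks between fragments, was read at 6392 and 6763 in WT and at 4946 and 4482 in *nmad-1* (-0.48 ± 0.094, limma adjusted p 0.00246). Its sign was positive under 4 of the 5 other scalings. *div-1*, the subunit that accompanies primase in DNA polymerase alpha, was read at 3083 and 3192 in WT and at 2185 and 1915 in *nmad-1* (-0.62 ± 0.10, limma adjusted p 0.00119). None of the 5 other scalings put it past the threshold.

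Replication protein A coats single-stranded DNA, with *rpa-1* as its large subunit and *rpa-2* as its middle one. At 25°C *rpa-1* was read at 10675 and 10781 in WT and at 6614 and 6550 in *nmad-1*, 61.4% of WT. The libraries of each genotype were close together and the genotypes did not overlap (log2 fold change -0.70 ± 0.085, limma adjusted p 0.00037). Under the 5 other scalings it lay between -0.31 and 0.085 and was called under 1. *rpa-2* was read at 4610 and 5759 in WT and at 2608 and 2726 in *nmad-1*, 51.8% of WT. Its WT libraries differed more from each other, and the groups were again apart (-0.95 ± 0.12, limma adjusted p 0.00041). Under the 5 other scalings it lay between -0.56 and -0.16 and was called under 4.

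The 2 subunits of ribonucleotide reductase had nearly equal differences. *rnr-1* was read at 15521 and 16668 in WT at 25°C and at 8273 and 8843 in *nmad-1*, a log2 difference of -0.91 ± 0.093 (limma adjusted p 0.00024). *rnr-2* was read at 12502 and 13915 in WT and at 7288 and 6788 in *nmad-1*, a log2 difference of -0.91 ± 0.097 (limma adjusted p 0.00027). Each stood at 53.2% and 53.3% of WT in turn, with no overlap between genotypes, and each was called under 4 of the 5 other scalings.

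*mtss-1*, which codes for the mitochondrial protein among the 10, had the lowest log2 fold change of these genes. It was read at 2566 and 3029 in WT at 25°C and at 1263 and 1164 in *nmad-1*. The mutant stood at 43.5% of WT, a log2 difference of -1.20 ± 0.11 (95% interval -1.46 to -0.94, limma adjusted p 0.00021), and 2.63% of all genes tested had a lower one. It was the one gene of the 10 that was lower and past the threshold under all 5 other scalings, with log2 fold changes from -0.81 to -0.41.

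How many of the 10 were called at 25°C turned on the scaling, while their order did not, since a scaling shifts all genes of a library alike. With every library scaled to the same total, 5 genes were lower and called (*mtss-1*, *rpa-2*, *rnr-1*, *rnr-2* and *pcn-1*), where 6.3% of all genes were. The same 5 were called with ribosomal RNA genes left out of the total, where 5.74% of all genes were. Scaling on the upper quartile added *rfc-2* and *rpa-1*, which made 7, where 14% of all genes were called lower. The median of all genes moved with these choices, from -0.088 as deposited to 0.51 with the same total and 0.33 with the upper quartile, and to 0.75 and 0.57 with the germ cell development and the licensing genes.

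Scaling on other germline genes set the 10 against their neighbours in the tissue. With each library scaled on the 24 germ cell development genes, whose own median was -0.80 as deposited, *mtss-1* was lower (-0.41), and *rfc-1* (0.42) and *lig-1* (0.31) were higher and passed the test, while the other 7 genes did not pass it. Under this scaling 2.44% of all genes were called lower and 67.4% higher. With each library scaled on the helicase and licensing genes, an alternative added after the data were seen, the same 5 genes as with an equal total were lower, *mtss-1* at -0.58, and *rfc-1* was higher at 0.25 (limma adjusted p 0.0335). Of all genes 5.49% were then called lower and 54.6% higher.

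**Figure D4:**
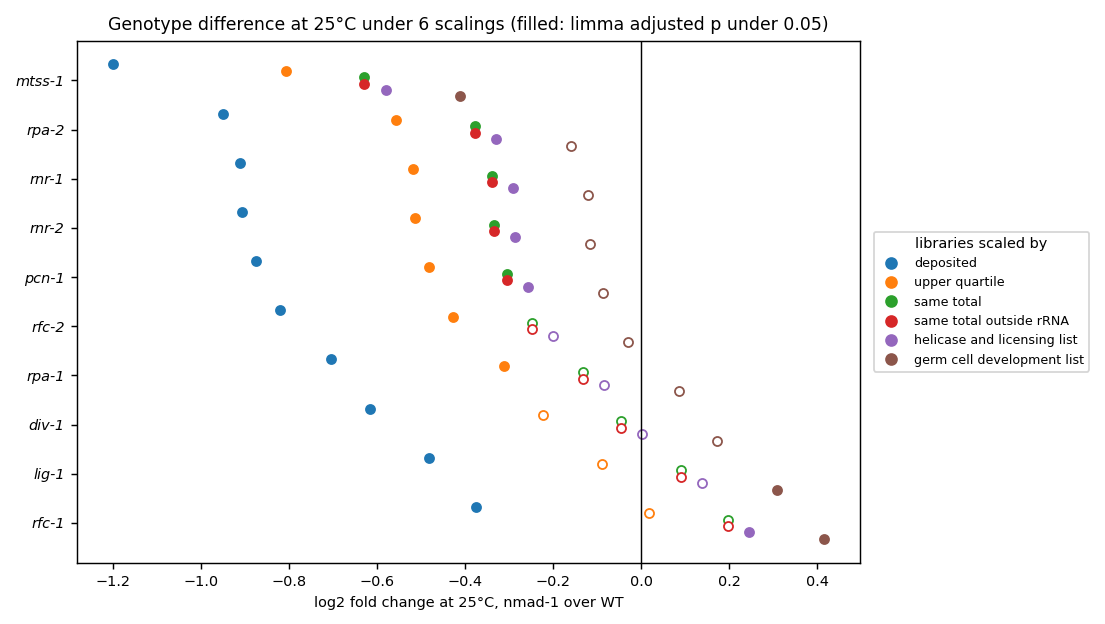
Log2 fold change at 25°C of each gene under the deposited scaling and 5 others, with filled circles for a limma adjusted p under 0.05. *mtss-1* lies left of 0 and is filled under every scaling, from -1.20 to -0.41, and *rfc-1* lies right of 0 under all but the deposited one, up to 0.42.

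Ratios between genes of 1 library need no scaling. The balance of the 2 loader subunits differed between genotypes at 25°C: *rfc-1* over *rfc-2* was 5.48 and 4.93 in WT and 7.33 and 6.84 in *nmad-1*. The genotypes did not overlap, and at 20°C the ratio was 4.83 and 5.27 in WT and 5.53 and 5.51 in *nmad-1*, with a smaller gap in the same direction. The clamp was lower relative to the large loader subunit in the mutant, with *pcn-1* over *rfc-1* at 1.69 and 1.93 in WT and 1.22 and 1.33 in *nmad-1* at 25°C. At 20°C that ratio overlapped between genotypes. *pcn-1* over *lig-1* went from 2.17 and 2.39 in WT to 1.66 and 1.81 in *nmad-1* at 25°C, and also overlapped at 20°C.

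The ratio of the ribonucleotide reductase subunits overlapped at both temperatures. At 25°C *rnr-1* over *rnr-2* was 1.242 and 1.198 in WT and 1.135 and 1.303 in *nmad-1*, so the mutant values lay on either side of both WT values. *rpa-1* over *rpa-2* was 2.32 and 1.87 in WT and 2.54 and 2.40 in *nmad-1* at 25°C, apart by less than the WT libraries differed from each other. *mtss-1* over *pcn-1* was lower in the mutant at both temperatures. At 20°C it was 0.225 and 0.226 in WT against 0.192 and 0.154 in the mutant, and at 25°C the values were 0.185 and 0.187 against 0.153 and 0.144. None of these ratios was tested.

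**Figure D5:**
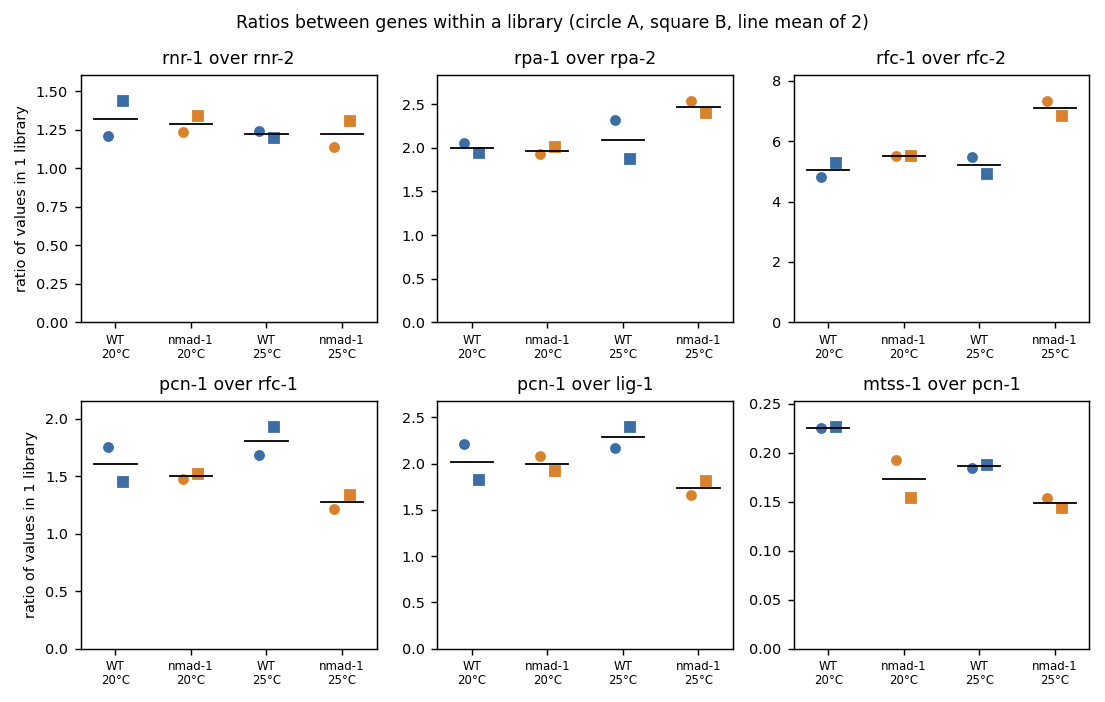
Ratio of the normalized expected counts of 2 genes in each library (blue WT, orange *nmad-1*, circle A, square B, black line mean of 2), with axes that start at 0. *rfc-1* over *rfc-2* at 25°C is 7.33 and 6.84 in *nmad-1* against 5.48 and 4.93 in WT, and *rnr-1* over *rnr-2* overlaps between genotypes.

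Whether the genotype difference itself changed with temperature was tested in 1 fit over all 8 libraries. As deposited all 10 genes had a more negative difference at 25°C, but *rfc-1*, *rfc-2*, *rpa-1*, *lig-1* and *div-1* changed sign under at least 1 of 5 other scalings. They had a median of -0.57 on the log2 scale beside -0.11 over the 11265 genes tested, and none passed the test, where 9.32% of all genes did and 1.25% were lower. At an unadjusted p under 0.05, 5 of the 10 passed (*pcn-1*, *rpa-2*, *rnr-1*, *rnr-2* and *mtss-1*), against 28.2% of all genes. *rnr-2* had the most negative difference at -0.82 ± 0.26 (SE, limma adjusted p 0.0659), and *rfc-1*, as deposited, the one nearest to 0 at -0.24 ± 0.24 (limma adjusted p 0.496), but with germ cell development scaling *rfc-1* was at 0.34 and *mtss-1* nearest to 0 at -0.0028. Among genes with a mean of at least 100, *rnr-2* alone of the 10 passed (limma adjusted p 0.0483), where 10% of those genes did. Library A of *nmad-1* at 20°C decided this count: without it all 10 passed, where 53.4% of all genes did and 32.7% were lower, and the median of the 10 was -0.75 beside -0.27 over all genes.

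Markers of other cell types also differed between the genotypes at 25°C, in the values as deposited. Of all genes tested 32.8% were called higher and 38% lower. Sperm markers had summed levels of 5.82 and 5.30 RPM in WT and 57.3 and 76.5 in *nmad-1*. Of 15 listed, 10 passed the filter on low values, and since the mutant libraries hold most of their reads, no count of calls is given. In WT *spe-42* and *ssp-9* were listed at 0 in library A and *msd-1*, *spe-38* and *ssp-19* in library B, and none was at 0 in *nmad-1*. Muscle markers summed to 295 and 392 RPM in WT and to 916 and 1144 in *nmad-1*, and neuron markers to 31.1 and 23.9 against 133 and 123. Intestine markers summed to 1265 and 2335 RPM in WT and to 4106 and 14345 in *nmad-1*, with the mutant libraries far from each other. Cuticle and epidermis markers summed to 20.2 and 42.7 RPM in WT and to 40.0 and 45.7 in *nmad-1*. Of 10 listed, 5 passed the filter on low values. Whether some muscle, neuron, intestine or cuticle markers passed it only through the mutant libraries was not checked, so their calls are not counted. Of the gonadal sheath and spermatheca markers 3 rose and 2 fell of 8 as deposited. With the same total 6 rose and none fell, where 51.3% of all genes were called higher and 6.3% lower. The 10 replication genes summed to 2386 and 2624 RPM in WT and to 2182 and 2168 in *nmad-1*, a narrower gap than in the deposited values. The part of these cell types in the differences of the replication genes was not tested.

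Other genes of the replication fork were also mostly lower in the deposited values. Beside the counts that follow, 38% of all genes tested at 25°C were called lower as deposited and 32.8% higher, and with the same total 6.3% were lower and 51.3% higher. With germ cell development scaling these shares were 2.44% and 67.4%. Of 27 matched genes beyond the 10 (31 listed), 24 were lower at 25°C, none was higher and the median log2 fold change was -0.60, but with the same total 3 were lower and 5 higher, and with germ cell development scaling none was lower and 9 were higher. *psf-2*, a subunit of the GINS complex that travels with the helicase, had -0.99 (limma adjusted p 0.00037), *pole-1*, the catalytic subunit of the leading-strand polymerase, -0.81 (limma adjusted p 0.0003), and *dut-1*, the enzyme that clears dUTP, -0.79 (limma adjusted p 0.00036). Other small subunits of the clamp loader, named after their values were seen, lay between *rfc-1* and *rfc-2*, with *rfc-4* at -0.57 and *rfc-3* at -0.67. *rpa-4*, a further RPA gene named in the same way, had -1.11 (limma adjusted p 0.00077).

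Helicase and licensing genes code for subunits of the replicative helicase and for proteins that act in or control its loading at origins. They were lower in 13 of 14 at 25°C as deposited, with a median of -0.66. With the same total 2 were lower and 1 was higher, and with germ cell development scaling none was lower and 5 were higher. *mcm-2* had -0.93, *mcm-6* -0.84 and *mcm-3* -0.72, each a subunit of that helicase. Of the genes that maintain mitochondrial DNA, 3 were tested at 25°C of 7 listed and 2 were lower as deposited, with a median of -0.37 beside -1.20 for *mtss-1*. With the same total none was lower and 1 was higher, with a median of 0.20 beside -0.63 for *mtss-1*. The G1/S control genes, which govern entry into S phase, were lower in 7 and higher in 2 of 14 as deposited, and lower in none and higher in 7 with the same total. The 2 higher genes as deposited were the cyclin *cyd-1* (0.83) and the cyclin-dependent kinase inhibitor *cki-1* (0.96), both named after their values were seen. Regulators of the mitotic zone and of entry into meiosis, listed together, were lower in 7 of 8, with a median of -0.58, and in 1 with the same total. With germ cell development scaling none of them was lower and 2 were higher. Germ cell development genes were lower in 24 of 24, with a median of -0.80, and in 11 with the same total. At 20°C no gene of these lists passed the test.

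The 10 genes followed 1 profile over the 8 libraries, as did many others. Pearson's r between each gene and the mean of the other 9, on log2 values with each table's mean taken off, ran from 0.911 for *mtss-1* and 0.928 for *rfc-1* to 0.998 for *rfc-2*. Of 7155 genes with a mean of at least 100, 2058 outside the lists had an r of at least 0.95 with the mean of the 10, led by *rpn-6.1*, *coq-5*, *lsm-4*, *brap-2* and *fubl-1*. Over the 7 libraries without library A of *nmad-1* at 20°C, r ran from 0.911 for *mtss-1* to 0.998 for *rfc-2*, and 2141 genes reached 0.95. These points share their libraries and their scaling, and the correlation is given as a description.

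The 10 genes lie on 5 chromosomes, with *rnr-1*, *rnr-2*, *div-1* and *mtss-1* on III, *pcn-1* and *rfc-2* on IV, *rfc-1* and *lig-1* on V, *rpa-1* on II and *rpa-2* on I. *rpa-2*, *rnr-2* and *div-1* overlap a gene on the opposite strand by 12, 10 and 18 nucleotides, and *rnr-1* spans a snoRNA gene that was listed at 0 in every library. Their coding lengths run from 510 nucleotides for *mtss-1* to 2517 for *rfc-1*, the genes with the lowest and the highest log2 fold change at 25°C. Spearman's rho between coding length and log2 fold change over the 10 at 25°C was 0.66, beside 0.14 over genes with a mean of at least 100. Genes of up to 600 coding nucleotides had a median log2 fold change of -0.59 at 25°C, and the longer classes had medians from -0.39 to -0.36. The part of length in the order of the 10 genes was not tested.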

How the data were processed

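The deposited values are signal: RSEM (1.3.0) expected counts per gene after Bowtie2 (2.2.9) alignment to ce10, divided by the authors by 1 size factor a library, separately at 20°C and 25°C. Column names hold neither genotype nor replicate number: genotypes were inferred from the sides of the comparison named in the labels and the order in which the study names it. The authors' own comparison tables (fold changes and probabilities) were not used. Depth was estimated from the step that 1 read makes in low values, and 91.5% to 93.4% of low values were whole multiples of it within 0.01. A gene was tested where its mean over the table reached 10, with limma 3.58.1 (R 4.3.3, mean-variance trend) on log2(value + 1), which understates the change of low genes. P-values were adjusted by Benjamini-Hochberg over all genes tested, threshold 0.05, and the procedure was tested on simulated data. The simulated libraries had no difference in scaling, no outlying library and as many raised as lowered genes. They therefore cannot show how the test behaves under the scaling and library differences seen here. The interaction, the difference between the 2 within-table genotype differences, was fitted over all 8 libraries. Replicates were called biological in the study, and with 2 a group the spread rests on the moderation over genes. Coding lengths and chromosomes come from WBcel235, another build than the files', so no coordinates are given. The 10 genes and all lists were chosen with earlier results of these data known. Other genes named were the 3 of each replication list with the smallest p at 25°C in each direction, and the 5 most alike in profile. Genes named outside this rule, chosen after their values were seen, are *rfc-3*, *rfc-4*, *rpa-4*, *cyd-1*, *cki-1* and the sperm markers listed at 0. Alternatives were other scalings, pseudocounts, filters, no trend and leaving out each library.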

Additional observations from a re-analysis of the deposited data

How the results depend on the processing

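No paired analysis was possible because the columns carry no replicate numbers. As deposited, 0 of the 10 genes passed at 20°C, 10 at 25°C and 0 in the interaction. Of all genes tested 0.481%, 70.8% and 9.32% did. Leaving out 1 library at a time gave 0 to 9 at 20°C and 0 to 10 in the interaction, and 10 each time at 25°C; the lone library left in a group is assumed to vary like the others. The shares of all genes beside the 9 at 20°C and the 10 in the interaction are given in the Results. For the fits at 25°C with 1 library left out, the share of all genes passing was not counted. The 10 each time therefore cannot be read as particular to these genes. At 25°C, 5 passed with the same total and 5 with the same total outside ribosomal RNA, all lower. Of all genes 57.6% and 55.6% passed there in turn, in either direction. With germ cell development scaling 3 passed, of which 1 was lower, where 69.9% of all genes passed. With licensing scaling, which was added after the data were seen, 6 passed, of which 5 were lower, where 60.1% of all genes passed. With a mean of at least 100, 1 passed in the interaction (*rnr-2*). Pseudocounts of 0.5 and 5, no filter and limma without the trend moved no such count by over 1.5 times. Scaling sets the level against which all genes are read, and no deposited value tells which level is right. Over all alternatives, 373 single fold changes kept sign and call, 20 passed newly, 16 no longer passed and 51 changed sign.

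The sign changes at 20°C, as log2 fold changes, were these. With the same total outside ribosomal RNA *rfc-1* was 0.086, *rnr-1* 0.10, *rnr-2* 0.14, *lig-1* 0.0041 and *div-1* 0.023. With the upper quartile *rfc-1* was 0.032, *rnr-1* 0.048 and *rnr-2* 0.082. With germ cell development scaling *rfc-1* was 0.075, *rnr-1* 0.091, *rnr-2* 0.13 and *div-1* 0.011. With licensing scaling *rfc-1* was 0.068, *rnr-1* 0.0845, *rnr-2* 0.12 and *div-1* 0.0046. Leaving out 1 library gave ranges from -0.47 to 0.017 for *pcn-1*, -0.35 to 0.087 for *rfc-1*, -0.55 to 0.024 for *rpa-1*, -0.50 to 0.018 for *rpa-2*, -0.43 to 0.19 for *rnr-1*, -0.34 to 0.17 for *rnr-2*, -0.52 to 0.085 for *lig-1* and -0.45 to 0.054 for *div-1*. None of these passed upward.

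At 25°C *rfc-1* was 0.20 with either equal total, 0.019 with the upper quartile, 0.42 with germ cell development scaling and 0.25 with licensing scaling. *lig-1* was 0.0898 with the same total and 0.0903 outside ribosomal RNA, 0.31 with germ cell development scaling and 0.14 with licensing scaling. *rpa-1* was 0.085 with germ cell development scaling, and *div-1* was 0.17 with it and 0.0027 with licensing scaling. In the interaction *rfc-1* was 0.27 with the same total, 0.11 outside ribosomal RNA, 0.34 with germ cell development and 0.18 with licensing scaling. *lig-1* was 0.25, 0.086, 0.32 and 0.15 under the same settings in turn, and ran from -0.57 to 0.035 with 1 library left out. With the same total *rpa-1* was 0.076 and *div-1* 0.096, and with germ cell development scaling *rfc-2* was 0.024, *rpa-1* 0.14 and *div-1* 0.16. The causes of these changes beyond the change of scale were not tested.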
